A study of Mus musculus with 6 samples.

Results

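The stathmins and the neuronal tubulin Tubb3 are 5 genes, Stmn1, Stmn2, Stmn3, Stmn4 and Tubb3, out of 19938 genes measured on the arrays. They were taken as every probeset whose array annotation names one of these symbols alone, and the brightest probeset stood for the gene. All 5 members were found. Stmn3 was selected on its measured log2 values, which stood lower with both compounds, so its differences from control are described without a test. The other members came in as its relatives and partners, again with earlier results of these arrays known.

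The cells were E14, a line of mouse embryonic stem cells, kept undifferentiated with leukemia inhibitory factor and serum on mitomycin-C-treated primary embryonic fibroblasts. Each of the 3 groups had 2 samples, numbered replicate 1 and 2. They were untreated cells, cells given 0.5 mM valproic acid (VPA) and cells given 0.2 mM sodium butyrate (NaBu), with 16 h of treatment. All groups shared the feeder layer, the medium and the cell line, and RNA of stem cells and feeders was not separated, so that fewer cells of a type and less RNA per cell cannot be told apart. Both compounds are short-chain fatty acids that inhibit histone deacetylases, and they were used at different doses.

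Microtubules grow and shrink by adding and losing dimers of alpha- and beta-tubulin. Stathmins hold free tubulin dimers and promote the shrinking of microtubule ends, and phosphorylation switches this off. Stmn1 is the soluble form that dividing cells use, whereas Stmn2, Stmn3 and Stmn4 carry an added amino-terminal part that anchors them to membranes and are best known from neurons and their growth cones. Tubb3 encodes the class III beta-tubulin, which is widely used as a marker of young neurons. Inhibitors of histone deacetylases are known to raise neuronal genes in other cells, in part because the repressor REST silences such genes through deacetylases.

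The regions before the start sites of Stmn3 and Tubb3 are shown because these 2 genes stood lower on all 4 arrays of treated cells than on both control arrays, and both have a promoter in the RefSeq table used here (GRCm38.p6). Stmn2 stood lower in the same way but has no entry there. Each line gives the 250 bases before the annotated start, read on the gene's strand. Capitals mark the matches found among the motifs searched. The first lies at chr2:181314501-181314750 on the minus strand and the other at chr8:123411303-123411552 on the plus strand.
Stmn3: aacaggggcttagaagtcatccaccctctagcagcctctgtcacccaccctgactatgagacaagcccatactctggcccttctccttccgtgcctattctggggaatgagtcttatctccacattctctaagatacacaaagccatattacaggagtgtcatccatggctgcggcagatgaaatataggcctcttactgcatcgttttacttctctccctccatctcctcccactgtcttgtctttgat
Tubb3: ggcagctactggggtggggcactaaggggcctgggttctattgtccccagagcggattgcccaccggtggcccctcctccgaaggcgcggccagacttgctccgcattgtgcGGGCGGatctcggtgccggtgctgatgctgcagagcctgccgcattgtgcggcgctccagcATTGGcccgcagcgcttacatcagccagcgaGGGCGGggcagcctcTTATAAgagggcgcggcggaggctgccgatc

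The 2 sequences differ in composition. The Tubb3 region is 68.0% G and C with 21 CpG dinucleotides, and 83.7% of the 32851 promoters of the table have fewer CpG. The Stmn3 region is 48.8% G and C with 3 CpG, and 29.0% of promoters have fewer. The motifs named here were searched on both strands. In the Tubb3 region they gave 2 GC boxes (GGGCGG, in 32.7% of promoters) and 1 CCAAT box (CCAAT, in 33.8%). TATAA, in 22.8% of promoters, was read there once on each strand in an overlapping stretch. The E-box CACGTG (6.0% of promoters) and the REST half-sites TTCAGCACC (0.3%) and GGACAGC (5.3%) had no match in the Tubb3 window. None of these motifs had a match in the Stmn3 window. Stmn1, Stmn2 and Stmn4 have no entry in the promoter table.

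The arrays were alike in overall signal, with a median gene between 5.71 and 5.79 on the log2 scale on every array. The labelled cell type showed in its markers: the mean of 12 pluripotency markers lay between 9.90 and 10.29 on the 6 arrays, and Pou5f1 lay between 11.12 and 11.90. The mean of 27 feeder fibroblast markers lay between 6.95 and 7.17 on the replicate 1 arrays and between 7.60 and 7.85 on the replicate 2 arrays. The groups were compared with limma on all genes, with p-values adjusted by the Benjamini-Hochberg method and called at an adjusted p under 0.05. Against control, 0% of all genes were called with VPA and 0% with NaBu, and 0% were called between the compounds. At an unadjusted p under 0.05 limma had 981 genes for VPA (4.92%), 311 for NaBu (1.56%) and 724 between the compounds (3.63%). A difference within a replicate number is between single arrays and carries no error of its own.

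Stmn3 stood lower in treated than in untreated cells with either compound. This stathmin, enriched in neurons, had log2 values of 5.71 and 6.22 in the control replicates 1 and 2. It read 4.98 and 5.62 with VPA and 5.41 and 5.33 with NaBu. Both control arrays were above all 4 treated arrays, and the margin between control replicate 1 and VPA replicate 2 was narrow. The group means were 5.96 ± 0.36 (SD, n = 2) for control, 5.30 ± 0.45 for VPA and 5.37 ± 0.06 for NaBu.

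The VPA mean of Stmn3 lay below control by a log2 difference of -0.66, or 63.2% of the control level. The difference was -0.73 within replicate 1 and -0.60 within replicate 2. The NaBu mean lay below control by -0.59, or 66.4% of control, with -0.30 within replicate 1 and -0.89 within replicate 2. The VPA differences were thus alike in the replicates, and the NaBu difference was mostly in replicate 2. In the order of all genes by difference, Stmn3 was rank 81 from the lowest for VPA and rank 10 for NaBu. These ranks describe the choice of the gene and both use the same control arrays. Leaving out control replicate 2 moved the mean difference to -0.41 for VPA and -0.34 for NaBu, and leaving out VPA replicate 1 gave -0.34 for VPA.

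**Figure D1:**
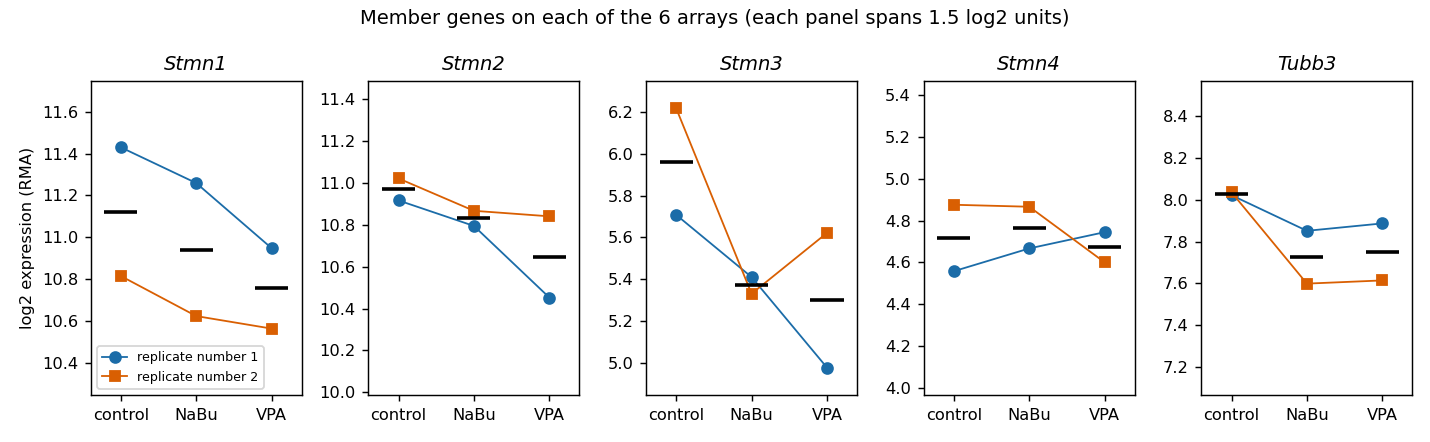
Log2 expression (vertical axis, RMA values) of the 5 genes in control, NaBu and VPA samples. Each point is 1 array, circles joined by a line are replicate 1, squares replicate 2, and short bars are group means of 2 arrays. Stmn2, Stmn3 and Tubb3 have both control points above all 4 treated points, Stmn1 is lower in replicate 2 in each group, and the replicate lines of Stmn4 cross.

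The signal of Stmn3 was of middle brightness, between the 39.9 and 55.7 percentile of genes over the 6 arrays, which describes the probeset and not an amount of transcript. A second probeset with the symbol Stmn3 alone, annotated with a single transcript that the other probeset also carries, was dim. It read between 2.79 and 3.14, the 8.7 to 16.1 percentile of all probesets. Its differences from control were -0.06 for VPA and -0.02 for NaBu. The lower Stmn3 signal in treated cells therefore rests on 1 probeset. With the mean of both probesets as the gene's value, the differences were -0.36 for VPA and -0.30 for NaBu.

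**Figure D2:**
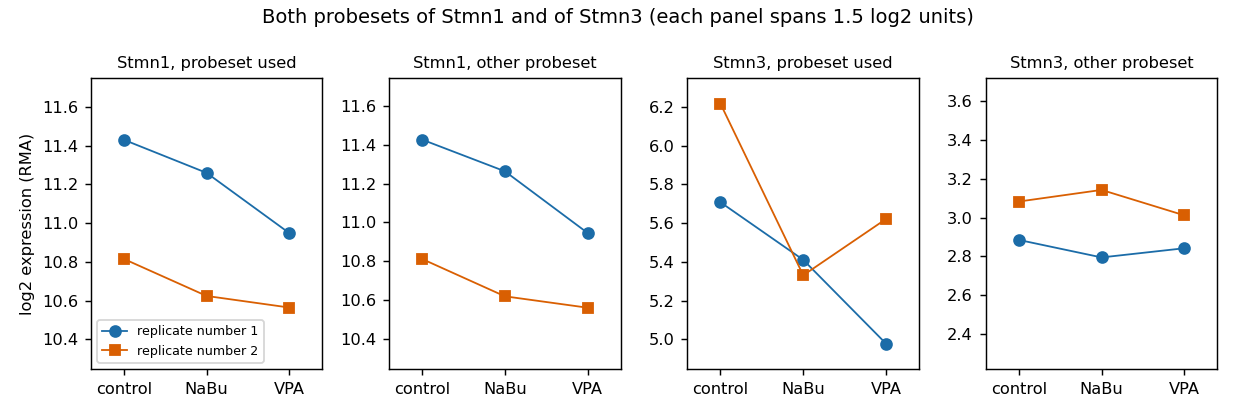
Log2 expression (vertical axis) of both probesets of Stmn1 and both of Stmn3 by group, circles for replicate 1 and squares for replicate 2. The Stmn1 probesets differ by at most 0.00528 on any array, whereas the dim Stmn3 probeset, between 2.79 and 3.14, has VPA and NaBu differences of -0.06 and -0.02.

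Stmn1, the stathmin of dividing cells, gave a bright signal on all 6 arrays and stood lower with both compounds by less than its replicates differed. It read 11.43 and 10.81 in control replicates 1 and 2, 10.95 and 10.56 with VPA and 11.26 and 10.62 with NaBu. In each group replicate 2 was the lower array, and the groups overlapped. The VPA difference was -0.37 (95% interval -1.08 to 0.34, limma adjusted p 0.969), with -0.48 in replicate 1 and -0.25 in replicate 2. The NaBu difference was -0.18 (95% interval -0.89 to 0.53, limma adjusted p 1.00), with -0.17 and -0.19. These within-replicate differences were all below 0, and those of NaBu were nearly equal. The mean differences depended on which replicates entered: the VPA value was -0.06 without control replicate 1, -0.67 without control replicate 2, -0.17 without VPA replicate 2 and -0.56 without VPA replicate 1. The NaBu value turned to 0.13 without control replicate 1 and 0.14 without NaBu replicate 2, and was -0.49 without control replicate 2 and -0.50 without NaBu replicate 1. These fits had no replicate term, so the gap between replicate numbers entered them. With the replicate number as a block, the VPA value was -0.31 without control replicate 1 and -0.42 without control replicate 2. The NaBu value was then -0.13 and -0.23.

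A second Stmn1 probeset followed the first within 0.00528 on every array and is no separate measurement. The array annotation gives both the same transcripts. RefSeq lists 2 pseudogene copies named after Stmn1, and which copy the signal comes from was not tested.

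Stmn2, a neuronal stathmin of growth cones, was as bright as the brightest few percent of genes on these arrays, between the 97.5 and 98.7 percentile. It read 10.92 and 11.02 in the control replicates, 10.45 and 10.84 with VPA and 10.79 and 10.87 with NaBu. The control arrays were above the arrays of either compound without overlap. The VPA difference was -0.32 (95% interval -0.70 to 0.06, limma adjusted p 0.964), or 80.0% of the control level, and it was -0.46 in replicate 1 and -0.18 in replicate 2. The NaBu difference was -0.14 (95% interval -0.52 to 0.24, limma adjusted p 1.00), with -0.12 and -0.15. Neither passed the threshold. The VPA difference was -0.13 without VPA replicate 1 and -0.52 without VPA replicate 2. The NaBu difference was -0.09 without control replicate 2.

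Stmn4, a neuronal member of the family, was dim and showed no common direction. It read 4.56 and 4.88 in the control replicates, 4.74 and 4.60 with VPA and 4.67 and 4.87 with NaBu. All groups overlapped, and no array went below the 34.8 percentile of genes or above the 39.2 percentile. The VPA difference was -0.04 (95% interval -0.42 to 0.33, limma adjusted p 0.998), with 0.19 in replicate 1 and -0.28 in replicate 2. The NaBu difference was 0.05 (95% interval -0.33 to 0.43, limma adjusted p 1.00). Leaving out control replicate 1 gave -0.20 for VPA and -0.11 for NaBu, and leaving out control replicate 2 gave 0.11 and 0.21. Leaving out a treated replicate gave 0.03 and -0.12 for VPA (without replicates 2 and 1) and -0.05 and 0.15 for NaBu.

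Tubb3, the beta-tubulin of neurons, was lower with either compound by a similar amount. It read 8.02 and 8.04 in the control replicates, 7.89 and 7.61 with VPA and 7.85 and 7.60 with NaBu. The control arrays were nearly equal and both above all 4 treated arrays. The VPA difference was -0.28 (95% interval -0.64 to 0.09, limma adjusted p 0.964), or 82.5% of control, with -0.13 in replicate 1 and -0.42 in replicate 2. The NaBu difference was -0.30 (95% interval -0.67 to 0.06, limma adjusted p 1.00), or 81.0% of control, with -0.17 and -0.44. Both differences were larger in replicate 2 and neither passed. The VPA difference was -0.14 without VPA replicate 2, and the NaBu difference was -0.18 without NaBu replicate 2.

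**Figure D3:**
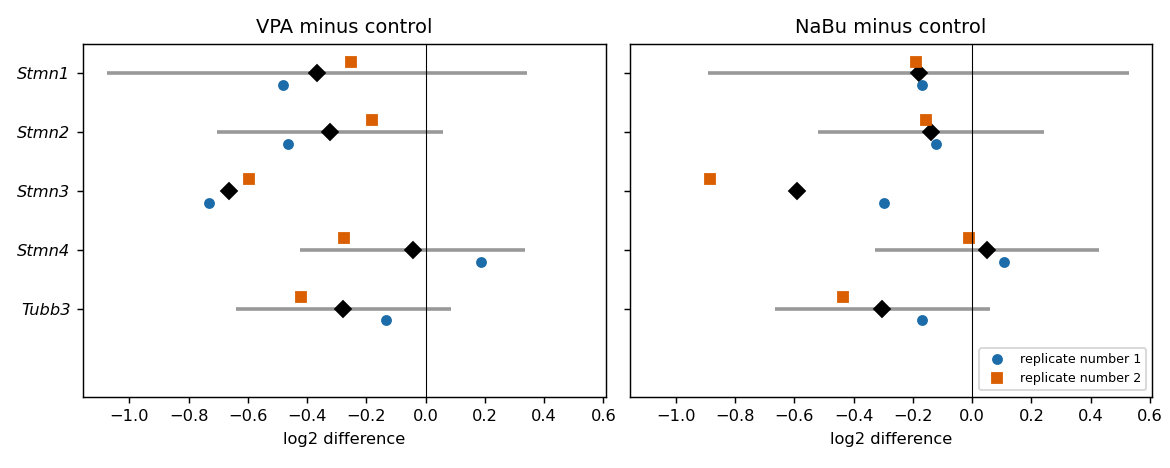
Log2 differences from control (horizontal axis) for VPA and NaBu. Diamonds are differences of group means, circles and squares the differences within replicates 1 and 2, and grey lines the 95% intervals of limma, which are left out for Stmn3 because it was chosen for these differences. Apart from Stmn3, 4 of 4 means lie below 0 for VPA (47% of all genes do) and 3 of 4 for NaBu (45.7%), and each interval drawn includes 0.

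Counted over the genes that were not picked for a fall, 3 of the 4 stood below control in both replicates with VPA, and the same held with NaBu. The share of all genes that did so was 28% for VPA and 23.1% for NaBu. Treated and control arrays did not overlap, with treated lower, for Stmn2 and Tubb3 with each compound, against 15.6% of all genes for VPA and 11.2% for NaBu. The median difference of the 4 genes was -0.30 for VPA and -0.16 for NaBu, beside 0.01 over all genes in each comparison. The comparisons share their control arrays, and the 4 genes were chosen with the results known. None of the 4 was at an unadjusted p under 0.05. With the replicate number as a block in limma, 3 of the 4 were for VPA (Stmn1, Stmn2 and Tubb3), beside 13.2% of all genes, and 1 for NaBu (Tubb3), beside 4.59%. None of the 4 passed the adjusted threshold with the block either.

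The compounds were given at different doses, 0.5 mM VPA and 0.2 mM NaBu, so their values stand side by side without a statement about potency. Stmn1 and Stmn2 had the order control, NaBu, VPA from high to low in both replicates, an order that 4.89% of all genes showed. Tubb3 had the order control, VPA, NaBu in both, as 1.96% of genes did, with VPA and NaBu within 0.04 of each other in each replicate. Stmn3 took the first order in replicate 1 and the other in replicate 2, where the VPA array was above the NaBu array by 0.29. VPA minus NaBu was -0.19 for Stmn1 (95% interval -0.89 to 0.52), -0.18 for Stmn2 (-0.57 to 0.20), -0.09 for Stmn4 (-0.47 to 0.28) and 0.03 for Tubb3 (-0.34 to 0.39), with limma adjusted p 0.998 for each. The intervals leave room for a difference in either direction.

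The replicate number went with Stmn1 more than either compound did. Stmn1 was lower in replicate 2 than in replicate 1 by 0.62 in control, 0.38 with VPA and 0.64 with NaBu as absolute log2 gaps. In a limma model with the group and the replicate number as terms, the difference of replicate 2 from replicate 1 was -0.55 (95% interval -0.76 to -0.33, adjusted p 0.0115), in the same direction in 3 of 3 groups. Of all genes 11.6% were called in this comparison, and 23.5% were lower in all 3 groups. Stmn1 was not called when a NaBu sample was left out, at -0.50 and adjusted p 0.0726.

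The other members differed less between replicate numbers, and those tested were not called. Stmn3 was higher in replicate 2 in control and with VPA, by 0.51 and 0.64, and lower by a value of -0.08 with NaBu. Its mean difference in that model was 0.36, given without a test because Stmn3 was picked on these values. It was 0.58 when a sample of NaBu, the group that went the other way, was left out. Stmn2 stood at 0.19 (adjusted p 0.281), Stmn4 at 0.12 (0.539) and Tubb3 at -0.17 (0.322) in the same limma model. Without 1 sample these ran from 0.09 to 0.25 for Stmn2, 0.03 to 0.26 for Stmn4 and -0.26 to -0.12 for Tubb3, lowest in size without a VPA sample for Stmn2 and Tubb3 and without a control sample for Stmn4. Stmn2 was the member that was higher in replicate 2 in all 3 groups, by 0.11, 0.39 and 0.07, as 23.2% of all genes were. The feeder markers moved with the replicate number: 21 of 27 were higher in replicate 2 in all 3 groups, 14 of them called, with a mean difference of 0.68. Of the 12 pluripotency markers 5 were lower in all 3 groups, with a mean difference of -0.13. Their part in the values of Stmn1 was not tested.

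The genes that supply and use tubulin did not move in a common direction with either compound. No member of the lists described here passed an adjusted p under 0.05 in limma for VPA or NaBu, as was so for all genes. Over all genes 47% lay below control with VPA and 45.7% with NaBu. Of 16 other tubulins, 7 lay below control with VPA and 8 with NaBu, and the list medians were 0.00 and 0.01. The written symbols Tuba1b, Tuba1c and Tubb4b had no probeset of their own. Tubb5, the main beta-tubulin of dividing cells, read 12.28 and 11.98 in control, 11.69 and 11.67 with VPA and 12.02 and 11.87 with NaBu. Its VPA difference was -0.45 (95% interval -0.79 to -0.10) and its NaBu difference -0.19. Tubb2b, a beta-tubulin of developing brain, stood at -0.21 with NaBu, while Tubb6 stood at 0.27 and Tuba8 at 0.21 with VPA. Tubb4a, another neuronal beta-tubulin, stood at -0.44 with NaBu, with -0.56 in replicate 1 and -0.32 in replicate 2.

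By replicate number, 8 of the 16 tubulins were lower in replicate 2 in all 3 groups, as Stmn1 was, beside 23.5% of all genes, and 4 were called in limma, beside 11.6% of all genes. The called genes were Tuba3a (-1.28), Tuba3b (-2.08), Tuba4a (-0.51) and Tubb2b (-0.42). Tuba3a and Tuba3b are near-identical genes, so that their signals may not be separate. The mean of the list was -0.26.

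Among 25 microtubule-binding proteins, 13 lay below control with VPA and 10 with NaBu. Map2, which stabilises microtubules in dendrites, went the other way from the stathmins with VPA. It read 5.33 and 5.92 in control and 6.43 and 6.20 with VPA, a difference of 0.69 (95% interval 0.05 to 1.32), and was higher in both replicates. The doublecortin-like kinase Dclk2 stood at -0.24 with VPA and -0.22 with NaBu, and Map9 at -0.28 with VPA and 0.14 with NaBu. Camsap2, which protects microtubule minus ends, stood at 0.23 with NaBu, with 0.02 in replicate 1 and 0.43 in replicate 2.

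Other factors that take microtubules apart were also mixed, with 7 of 11 below control for VPA and 5 for NaBu. The severing enzyme subunit Katnal1 stood at 0.47 with VPA and 0.31 with NaBu, and the mitotic kinesin Kif18a at -0.28 with VPA. Fign, another severing enzyme, stood at -0.22 with VPA and 0.21 with NaBu, and was dim (3.75 and 3.66 in control). Kif18b stood at 0.18 with NaBu. Of 13 genes listed under tubulin folding 8 lay below control with VPA and 5 with NaBu. Tbcd stood at 0.22 and Pfdn5 at -0.19 for VPA, and the cofactor E-like gene Tbcel at 0.28 for NaBu. The folding factor Tbce stood at -0.13 with VPA and 0.11 with NaBu, and Pfdn4 at 0.11 with NaBu.

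Of 24 enzymes that modify tubulin, 8 lay below control with VPA and 9 with NaBu. Ttll1, which adds glutamate chains to tubulin, stood at 0.51 with VPA (95% interval 0.10 to 0.91), Ttll4 at -0.27 and the deacetylase Sirt2 at 0.34. The Sirt2 difference was 0.60 in replicate 1 and 0.08 in replicate 2. With NaBu Ttll6 stood at 0.25 (0.02 in replicate 1 and 0.48 in replicate 2) and Svbp at -0.17 (-0.05 and -0.30). Ttll8, a dim gene (3.35 and 3.28 in control), stood at 0.12 with NaBu. Of 14 kinases known to phosphorylate stathmins, 6 lay below control with VPA and 7 with NaBu. Mapk10, the neuronal Jun kinase, stood at 0.41 with VPA (95% interval 0.01 to 0.81) and 0.47 with NaBu (0.07 to 0.87). Its signal was dim, at 3.97 and 4.05 in control, 4.63 and 4.20 with VPA and 4.45 and 4.52 with NaBu. Cdk2 stood at -0.32 and the mitotic kinase Aurkb at -0.27 with VPA, and Camk2g at 0.14 and Camk2a at -0.15 with NaBu.

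**Figure D4:**
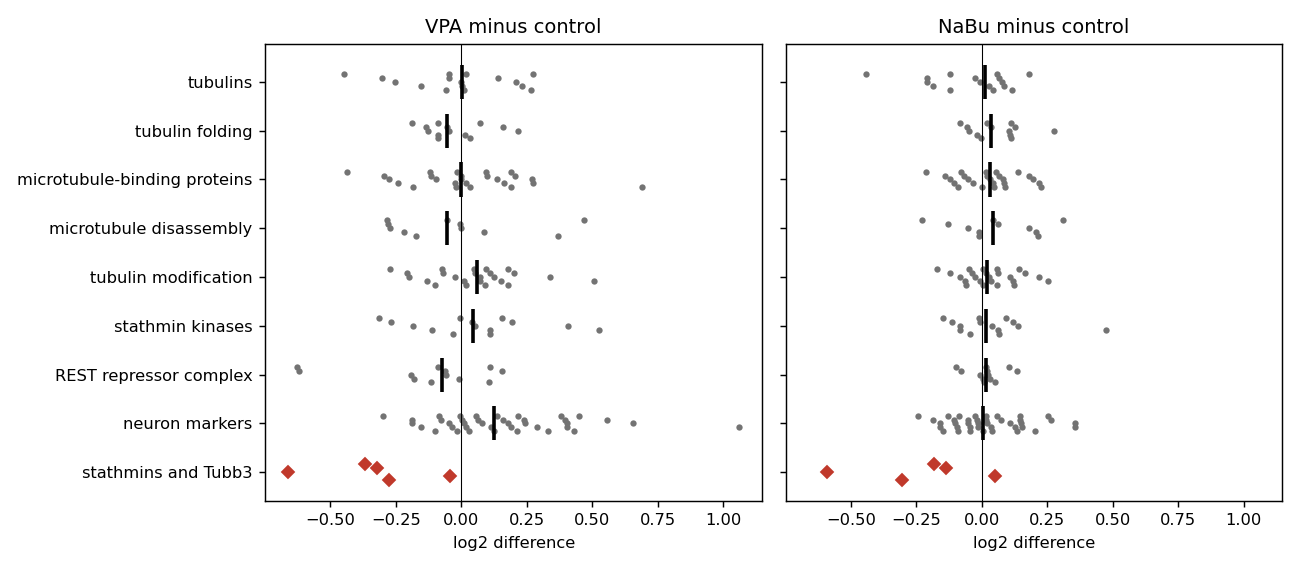
Log2 differences from control (horizontal axis) for VPA and NaBu. Grey points are the genes of each list, short black lines list medians, and red diamonds the 5 stathmin and Tubb3 genes, without a median because 1 of them was picked for its fall. The list medians of tubulins are 0.00 and 0.01, and that of neuron markers is 0.12 for VPA.

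The repressor REST, which silences neuronal genes outside the nervous system, was itself lower with VPA in each replicate. Rest read 10.53 and 10.08 in control and 9.82 and 9.54 with VPA, a difference of -0.63 (95% interval -1.11 to -0.15, limma adjusted p 0.964), and stood at -0.10 with NaBu. Its corepressor Rcor2 stood at -0.62 with VPA (95% interval -1.10 to -0.14), and Rcor3 at -0.19. With NaBu Rcor1 stood at 0.14 and Rcor3 at -0.08, each with opposite signs in the 2 replicates. Of 12 genes of this complex 9 lay below control with VPA, 6 of them in both replicates, and 3 with NaBu, 1 of them in both. Of all genes 47% lay below control with VPA and 45.7% with NaBu.

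Neuron markers, of which 39 were measured beside the stathmins and Tubb3, lay more often above than below control with VPA, and none was called. Of the 39, 28 lay above control, 17 of them in both replicates, and 11 below, 4 of them in both. Of all genes 47% lay below control, and 28% did so in both replicates. At an unadjusted p under 0.05 limma had 4 of the 39 higher and 0 lower, beside 4.92% of all genes in either direction. The list median was 0.12. The lower markers included the neurofilament gene Nefh at -0.30 and Uchl1 at -0.19, and the higher ones Syt1 at 0.66 and Ncam1 at 0.56. All of these were named after their values were seen. The adhesion molecules Nrcam and L1cam stood at 0.45 and 0.43, and the secretory granule protein Chga at 0.40. With NaBu 20 of 39 lay above control, with a median of 0.01, Elavl4 at 0.26, Gng3 at 0.35 and Neurod2 at -0.25. Of 10 neural progenitor markers 6 lay above control with VPA, with Nes at 0.41, Zic1 at 0.14 and Hes5 at -0.18, and 5 with NaBu, with Sox1 at -0.44, Hes5 at -0.23 (0.01 in replicate 1 and -0.47 in replicate 2) and Olig2 at -0.18 (-0.42 in replicate 1 and 0.06 in replicate 2). The differences between these lists and the 5 genes were not tested.

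Markers of the stem cells and of the feeder fibroblasts stood as follows beside the stathmin values. The share of all genes below control was 47% with VPA and 45.7% with NaBu. Of the 12 pluripotency markers, 11 lay below control with VPA, with a median of -0.25, Pou5f1 at -0.64, Utf1 at -0.59 and Fgf4 at -0.86. With NaBu 10 of 12 lay below control, with a median of -0.05, Pou5f1 at -0.14, Sox2 at -0.18 (0.01 in replicate 1 and -0.38 in replicate 2) and Fgf4 at -0.17. Of the 27 feeder markers, 16 lay above control with VPA and 23 with NaBu, with medians of 0.04 and 0.14. With VPA Snai2 stood at 0.29, S100a4 at -0.47 (-1.11 in replicate 1 and 0.16 in replicate 2) and Col5a1 at 0.22. With NaBu Acta2 stood at 0.28, Tagln at 0.30 (0.54 in replicate 1 and 0.06 in replicate 2) and Cald1 at 0.29. The mean of the feeder list differed from control by -0.17 in replicate 1 and 0.20 in replicate 2 for VPA, and by 0.05 and 0.25 for NaBu. Stmn3 lay below control in both replicates with each compound, and a part of feeder RNA in its values was not tested.

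The genes most like each member were read as the highest Pearson correlation over the 6 arrays, among 5355 or 5356 named genes with an SD over the arrays of at least 0.2. These correlations are descriptions over few arrays that share the replicate numbers. Stmn1 was closest to Aard (r = 0.997), Foxi3 (0.996) and Eif3l (0.995), and 560 genes had r above 0.9 with it. Stmn2 was closest to Cers2 (0.992), Upp1 (0.983) and Sra1 (0.983), with 81 such genes. Stmn3 had 10 such genes and was closest to Rsph4a (0.987), Cnbd2 (0.946) and Mpig6b (0.933). Stmn4 was closest to Psph (0.965), Klrg1 (0.955) and Ndufv3 (0.938), and Tubb3 to Klhdc7a (0.961), Alkbh7 (0.946) and Krt10 (0.939). Rsph4a read 6.25 and 6.49 in control, 5.88 and 6.16 with VPA and 6.16 and 6.05 with NaBu, with the same highest and lowest array as Stmn3 and a smaller range.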

How the data were processed

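RNA of 6 samples was measured on an Affymetrix mouse gene array. The authors deposited log2 values, 1 per probeset and array. The submitters' processing notes name RMA and Affymetrix Expression Console 1.1; RMA's settings and a genome build are not stated there. The array annotation gave 1 symbol for 21789 of 35556 probesets, and taking the brightest per symbol left 19938 genes. Of the 21789 probesets, 21698 matched RefSeq by gene ID. Limma 3.58.1 in R 4.3.3 was run with 1 mean for each group (3 residual degrees of freedom) and Benjamini-Hochberg adjustment over all genes; intervals are 95%. The labels do not tell whether replicates were separate cultures. The p-values set a difference against the spread between these samples, which limma moderates over all genes. Without a replicate term that spread also holds the difference between replicate numbers. An exact permutation test of 2 against 2 arrays cannot go below p = 0.333. The members and gene lists were chosen with earlier results of these data known. Named list genes are the 3 with the largest absolute moderated statistic per list and compound. The intervals printed for these genes are not adjusted for that choice, so they can exclude 0 through the selection. Several of the mean differences of these genes lay mostly in 1 replicate. Symbols with no probeset of their own were not analysed here. The limma step was tested on simulated data.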

Additional observations from a re-analysis of the deposited data

How the results depend on the processing

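The replicate number was tried as a replicate block, since arrays with the same number departed in common from the means of their groups (r = 0.558, 0.693 and 0.567 across genes for the 3 pairs of groups), although the labels state no pairing. limma with the block again called 0 genes for VPA, NaBu and VPA against NaBu, with 2636, 916 and 2150 at an unadjusted p under 0.05. The VPA intervals became -0.63 to -0.10 for Stmn1 (adjusted p 0.267), -0.60 to -0.04 for Stmn2 (0.313) and -0.553 to -0.0026 for Tubb3 (0.373), and the NaBu interval of Tubb3 became -0.58 to -0.03 (0.994). Quantile normalization turned no member's direction. An intensity trend and both filters on dim genes leave the mean differences as they are, so they could not turn a direction. The mean of all single-symbol probesets could change only Stmn1 and Stmn3, and it turned neither. For Stmn1 the second probeset is no separate measurement. Median centring turned Tubb3 in VPA against NaBu (-0.0072). The filters removed Stmn4, and the filter at the median gene also Stmn3.

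Without 1 replicate, the unblocked differences ran from -0.2031 to 0.1144 (VPA) and -0.1091 to 0.2084 (NaBu) for Stmn4, and from -0.4988 to 0.1368 for Stmn1 with NaBu. Between the compounds they ran from -0.5034 to 0.1322 for Stmn1, -0.3782 to 0.0098 for Stmn2, -0.1936 to 0.0056 for Stmn4 and -0.1109 to 0.1615 for Tubb3. The genes called by replicate number ranged from 716 to 2434, with Stmn1 between -0.6253 and -0.4997 and Stmn3 between 0.2146 and 0.5762. With the replicate block as well, an alternative chosen after seeing the data that leaves 1 residual degree of freedom, 774 genes were called for VPA and 363 between the compounds without VPA replicate 2. Without control replicate 2 it called 7 for VPA, 1 for NaBu and 1 between the compounds, and 1 between the compounds without control replicate 1. None of the 4 members tested was among these calls. In those blocked fits Stmn4 turned to 0.1006 and 0.1569 for VPA, -0.0953 and -0.0066 for NaBu and 0.1072 between the compounds, and Tubb3 to -0.0513 and -0.0362 between the compounds. The cause of these changes was not tested. The number of arrays limits the precision.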
